A study of Homo sapiens with 4 samples.

Results

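The genes described are 10 genes of the Hippo pathway's transcriptional output: the coactivator genes YAP1 and WWTR1 (which encodes TAZ), and 8 genes that are targets of the coactivators or bind the pathway's proteins (CCN1, CCN2, ANKRD1, AXL, AMOTL1, AMOTL2, LATS2 and AJUBA). They were selected by symbol, with earlier results of these data known, so shares over all genes are given beside them as description only. After matching Ensembl identifiers to gene names, all 10 were found among the 20263 genes of the deposited count table. The cells were HCT116, an established human colon cancer line, grown in medium with serum and given the compound N_12 or the solvent DMSO for 24 h. Each of these groups held 2 libraries, and every library came from the same line. The series title presents N_12 as derived from nilotinib, an inhibitor of the ABL tyrosine kinases. The N_12 samples have another code, HJJ_3_5, in their treatment tag, and no dose is given in the labels.

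YAP and TAZ are coactivators without a DNA-binding domain of their own, and they reach DNA mainly through the TEAD transcription factors. When the Hippo kinases MST1 and MST2 (genes STK4 and STK3) activate LATS1 and LATS2, the LATS kinases phosphorylate YAP and TAZ, which are then held in the cytoplasm or degraded. Cell density, loss of adhesion and low actin tension keep the pathway active, and in the intestinal epithelium YAP is known for its part in regeneration and in colon tumours. Because YAP and TAZ are controlled largely as proteins, the mRNA level of YAP1 or WWTR1 does not measure their activity, and targets such as CCN1, CCN2 and ANKRD1 are commonly read for that purpose.

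As sequence context for the TEAD proteins, the 250 bases before the start of 3 members are given from RefSeq on build GRCh38.p14, 5′ to 3′ on the strand of the gene, with the core of the TEAD motif (GGAATG, or CATTCC where it lies on the other strand) in capitals. CCN2 (chr6:131951373-131951622, minus strand) held 3 cores, ANKRD1 (chr10:90921088-90921337, minus strand) held 2, and the second start of AMOTL2 (chr3:134374448-134374697, minus strand) held 1. They were chosen because CCN2 had the largest difference between the groups, ANKRD1 was almost without counts and AMOTL2 is a target inside the pathway. The first start of AMOTL2 held no core and is not shown.
CCN2: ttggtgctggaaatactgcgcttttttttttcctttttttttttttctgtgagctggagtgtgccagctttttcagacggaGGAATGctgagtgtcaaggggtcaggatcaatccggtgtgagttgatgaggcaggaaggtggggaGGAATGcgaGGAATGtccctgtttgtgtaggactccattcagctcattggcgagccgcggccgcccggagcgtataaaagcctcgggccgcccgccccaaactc
ANKRD1: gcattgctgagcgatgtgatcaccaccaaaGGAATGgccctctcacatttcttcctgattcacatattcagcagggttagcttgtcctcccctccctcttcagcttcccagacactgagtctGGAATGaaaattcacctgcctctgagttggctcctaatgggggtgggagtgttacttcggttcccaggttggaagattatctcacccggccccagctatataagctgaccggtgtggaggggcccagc
AMOTL2: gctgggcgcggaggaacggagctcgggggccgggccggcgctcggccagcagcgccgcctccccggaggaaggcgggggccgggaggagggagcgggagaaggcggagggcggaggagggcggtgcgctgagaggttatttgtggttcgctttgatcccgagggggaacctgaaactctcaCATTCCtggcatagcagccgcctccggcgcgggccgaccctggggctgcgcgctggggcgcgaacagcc
The first base of the cores lay 169, 104 and 95 bases before the start of CCN2, 220 and 128 bases before that of ANKRD1 and 69 bases before that of AMOTL2. Windows of 300 bases, from 250 bases before to 50 bases after a start, were at hand for 9 of the 10 members, CCN1 being the exception, and 7 of their 13 windows, each of a different member, had at least 1 core. In 6 of these windows a core lay before the start, and in that of LATS2 the core lay after it. Over all 35116 RefSeq windows, 14% held the core on either strand and 1.37% held 2 or more. The AP-1 motif TGANTCA, found in 7.71% of all windows, occurred in 1 of the 13 windows of the members, that of ANKRD1, where it did not overlap a TEAD core. These matches describe letters only and show no binding.

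Total counts were 41717938 and 39865327 in the N_12 libraries and 31120459 and 29769568 in the DMSO libraries. Both N_12 libraries were thus deeper than both DMSO libraries. Of the 14105 genes with enough counts, edgeR's quasi-likelihood test, with p adjusted over all of them by Benjamini and Hochberg, called 317 (2.25%) at 0.05, 116 higher and 201 lower in N_12. The epithelial genes EPCAM, KRT8, KRT18 and CDH1 were well expressed, whereas KRT20 and VIL1 stood below 1 CPM (counts scaled to library size) and CDX1 had 0 counts. The summed level of the 7 epithelial markers was 2091 and 2296 CPM in the N_12 libraries, against 2834 and 2551 CPM in the DMSO libraries, so it was lower in both N_12 libraries. Most of it came from KRT8, with means of 1437 CPM in N_12 and 1851 CPM in DMSO. EPCAM and CDH1 were also lower in both N_12 libraries, whereas KRT18 was level and overlapped (means of 501 CPM in N_12 and 496 CPM in DMSO). The part of this sum in the differences of the members was not tested. For 7 fibroblast markers the sums were 55.5 and 60.2 CPM in N_12 and 65.0 and 61.2 CPM in DMSO, nearly all from COL1A1, with COL1A2, DCN and LUM at 0. Leukocyte markers (6) summed to 49.1 and 42.3 CPM in N_12 and to 41.7 and 35.0 CPM in DMSO. Most came from the lysosomal gene CD68, with PTPRC and CD3E at 0. In GENCODE, 81.7% of the exon bases of CD68 overlap another gene on the same strand. The 5 endothelial markers summed to 0.878 and 2.45 CPM in N_12 and to 1.61 and 1.46 CPM in DMSO.

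The comparison of N_12 with DMSO asked whether the coactivators and their target genes differed in mRNA after treatment. The secreted target CCN2 was 2.41-fold lower in N_12 and CCN1 was 1.60-fold lower. For each the N_12 values all lay under the DMSO values, as they did for 26.8% of all tested genes. The coactivator genes differed between the groups by less than the gap between the N_12 replicates. None of the 9 tested members was called by edgeR, beside 2.25% of all tested genes. At an unadjusted p under 0.05, edgeR listed 4 of the 9, all lower (CCN2, CCN1, AMOTL2 and LATS2), against 10.8% of all tested genes on that side. DMSO replicate 1 was the highest library for each of these 4. Without it their log2 fold changes stayed negative but were smaller in size. They were -0.999 for CCN2, -0.49 for CCN1, -0.38 for AMOTL2 and -0.32 for LATS2. The size of these differences, and so the listing of the 4, thus rests partly on that library. With all libraries kept, limma-voom called 0 members and DESeq2 called 3, namely CCN2, CCN1 and AMOTL2, all lower. Over all tested genes limma-voom called 0.929% and DESeq2 8.68%. The labels do not say whether the replicates came from separate cultures, so p-values reflect only how far these samples vary, which may be a technical spread. In bulk RNA, fewer cells expressing a gene and less RNA per cell cannot be told apart.

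**Figure D1:**
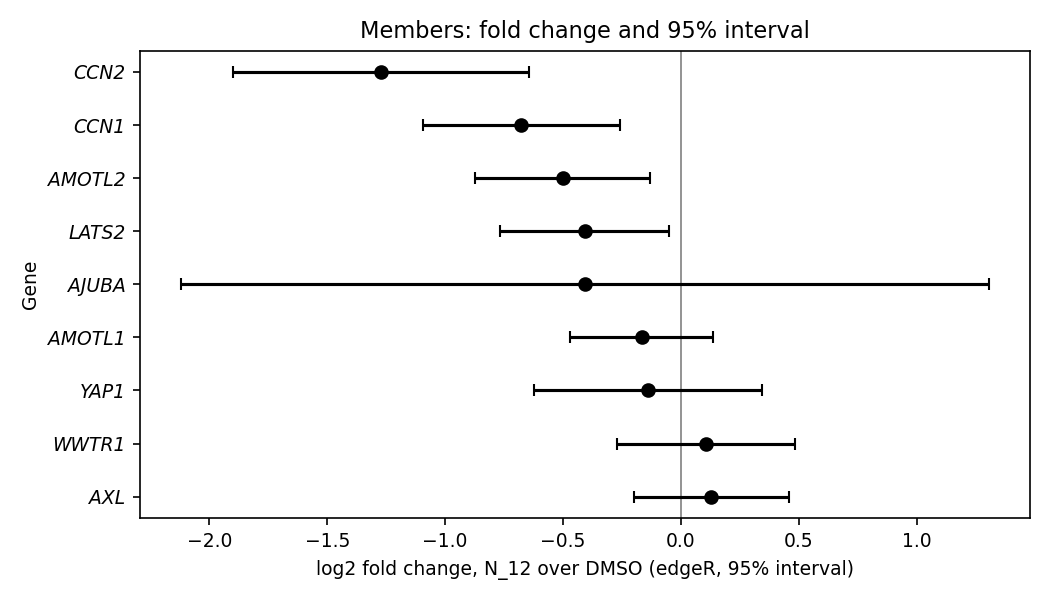
Log2 fold change of the 9 tested members, N_12 over DMSO, with the 95% interval from edgeR's fit on 2 libraries per group (points are estimates, bars are intervals, the vertical line is 0). The intervals of CCN2, CCN1, AMOTL2 and LATS2 lie wholly below 0, and that of AJUBA, from -2.12 to 1.31, is the widest.

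Among the coactivators, YAP1 (ENSG00000137693) had 101 and 155 CPM in the N_12 libraries, against 141 and 141 CPM in the DMSO libraries. The N_12 libraries lay on either side of the DMSO libraries, replicate 1 below and replicate 2 above. The log2 fold change was -0.14 (SE 0.20, 95% interval -0.62 to 0.34, edgeR adjusted p = 0.733), and it was 0.12 without N_12 replicate 1 and -0.48 without N_12 replicate 2. WWTR1 (ENSG00000018408) had 231 and 180 CPM in N_12, against 205 and 176 CPM in DMSO, and the groups overlapped. Its log2 fold change was 0.11 (95% interval -0.27 to 0.48, edgeR adjusted p = 0.745), or -0.10 without N_12 replicate 1. N_12 replicate 1 was the lowest library for YAP1 and the highest for WWTR1. Counted per exon base, the ratio of YAP1 to WWTR1 was 0.587 and 1.15 in the N_12 libraries and 0.921 and 1.07 in the DMSO libraries. Reads of both genes can include those of a partner on the other strand, since the strand setting is not given in the sources used here: 9.97% of the exon bases of YAP1 and 9.45% of those of WWTR1 overlap such a gene in GENCODE.

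The matricellular targets CCN1 and CCN2 encode secreted proteins of the extracellular matrix that bind integrins, and they are the targets most often measured as a readout of YAP and TAZ. CCN2 (ENSG00000118523), formerly CTGF, whose 3 TEAD cores are shown above, had 90 and 118 counts in N_12 and 217 and 148 counts in DMSO. Scaled for depth this was 2.14 and 2.89 CPM in N_12, against 7.12 and 5.03 CPM in DMSO, with no overlap. The log2 fold change was -1.27 (SE 0.27, 95% interval -1.90 to -0.65, edgeR adjusted p = 0.0569), the lowest p among the members and rank 399 of the 14105 tested genes. It ranged from -1.51 to -0.999 when 1 library was left out, and without DMSO replicate 2 it passed the threshold (-1.50, edgeR adjusted p = 0.0206). In that fit DMSO is 1 library, assumed to vary like the N_12 libraries. Without DMSO replicate 1 the edgeR adjusted p was 0.209, and it was 0.190 and 0.175 without N_12 replicate 1 and without N_12 replicate 2. Exons of CCN2 overlap a gene on the other strand over 8.34% of their bases.

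CCN1 (ENSG00000142871), formerly CYR61, had 15.2 and 15.4 CPM in N_12, against 27.4 and 21.5 CPM in DMSO. The N_12 libraries agree closely and lay below both DMSO libraries, which differed more from each other. Its log2 fold change was -0.68 (SE 0.18, 95% interval -1.09 to -0.26, edgeR adjusted p = 0.0938), with a range of -0.84 to -0.49 when 1 library was left out. Per exon base, CCN1 exceeded CCN2 by 6.76 and 5.06 times in the N_12 libraries and by 3.67 and 4.06 times in the DMSO libraries.

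ANKRD1 (ENSG00000148677), a nuclear and sarcomeric ankyrin repeat protein gene that is a standard YAP target in other cells, had 1 and 0 counts in N_12, against 1 and 0 counts in DMSO. A count of 0 allows up to 0.0753 CPM in N_12 replicate 2 and 0.101 CPM in DMSO replicate 2, counting error only. The gene was therefore not tested, and a difference was not detectable at this depth; its promoter window holds 2 TEAD cores. AXL (ENSG00000167601), a receptor tyrosine kinase for the ligand GAS6, had 106 and 107 CPM in N_12, against 105 and 89.4 CPM in DMSO. Both N_12 libraries were above both DMSO libraries, by a margin smaller than the gap between the DMSO libraries. The log2 fold change was 0.13 (95% interval -0.20 to 0.46, edgeR adjusted p = 0.637), and 0.02 without DMSO replicate 2.

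**Figure D2:**
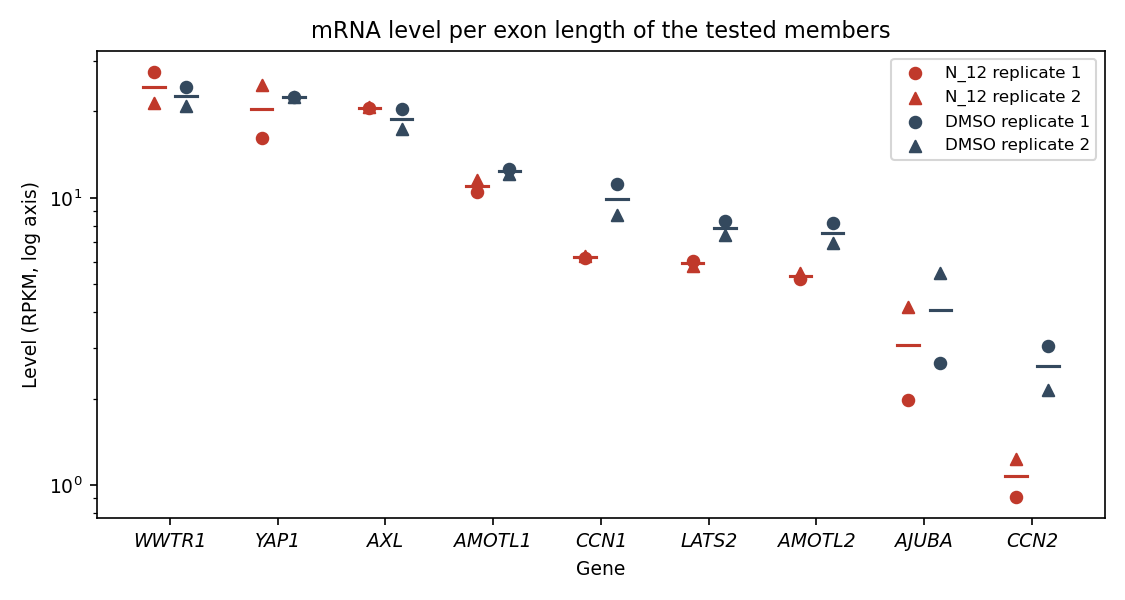
Level of the 9 tested members in each library, as RPKM (CPM divided by the exon length in kilobases) on a log axis; circles are replicate 1, triangles replicate 2 and short lines group means. CCN2, at 1.08 RPKM in N_12 and 2.60 RPKM in DMSO, is the lowest of the 9, and the N_12 libraries lie below the DMSO libraries for CCN1, CCN2, AMOTL1, AMOTL2 and LATS2.

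Members that act back on YAP and TAZ were described next. The angiomotin-like proteins AMOTL1 and AMOTL2 are scaffolds at tight junctions and on actin that bind YAP and keep it out of the nucleus, and AMOTL2 is itself a YAP target. AMOTL2 (ENSG00000114019) had 31.4 and 32.7 CPM in N_12, against 49.0 and 41.7 CPM in DMSO, with no overlap. Its log2 fold change was -0.50 (SE 0.16, 95% interval -0.87 to -0.13, edgeR adjusted p = 0.135), and -0.38 without DMSO replicate 1. AMOTL1 (ENSG00000166025) had 105 and 116 CPM in N_12, against 126 and 122 CPM in DMSO. Here too both N_12 libraries were the lower ones, but the interval of the log2 fold change included 0 (-0.17, 95% interval -0.47 to 0.14, edgeR adjusted p = 0.494).

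LATS2 (ENSG00000150457), the kinase that phosphorylates YAP and TAZ and whose gene they induce as negative feedback, had 33.8 and 32.2 CPM in N_12, against 46.2 and 41.3 CPM in DMSO. The groups did not overlap, and the log2 fold change was -0.41 (SE 0.15, 95% interval -0.77 to -0.05, edgeR adjusted p = 0.184). AJUBA (ENSG00000129474), a LIM-domain protein of adherens junctions that binds and inhibits LATS kinases, had 11.8 and 24.9 CPM in N_12, against 15.9 and 32.8 CPM in DMSO. Replicate 2 was 2.11 times replicate 1 in N_12 and 2.06 times in DMSO, a gap larger than that between the groups. The log2 fold change of AJUBA was accordingly imprecise (-0.41, SE 0.58, 95% interval -2.12 to 1.31, edgeR adjusted p = 0.741) and became 0.01 without N_12 replicate 1 and 0.21 without DMSO replicate 2. AJUBA had 485 or more counts in every library. In GENCODE, exon overlap with another gene covered 4.94% of the bases of AMOTL1, 3.13% of those of AMOTL2, 1.30% of those of AXL and 0.836% of those of AJUBA, and none of CCN1, LATS2 or ANKRD1.

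**Figure D3:**
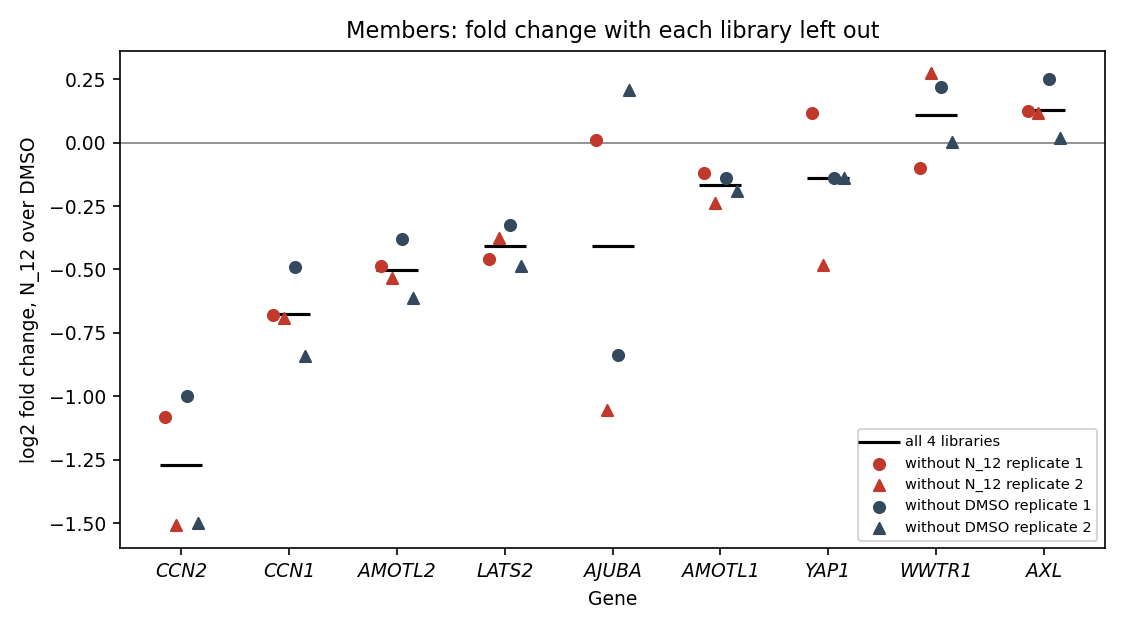
Log2 fold change of each tested member, N_12 over DMSO, with all 4 libraries (horizontal bars) and with each library left out in turn (red, an N_12 library left out; dark blue, a DMSO library left out; circles, replicate 1; triangles, replicate 2). CCN2, CCN1, AMOTL2, LATS2 and AMOTL1 stay below 0 in all of these fits, AXL stays above, and AJUBA, YAP1 and WWTR1 cross 0.

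The log2 fold change was negative for 7 of the 9 tested members, and for 6915 of all 14105 tested genes. The median of the members was -0.41, which is the imprecise value of AJUBA, beside a median of 0.01 over all tested genes. With 1 library left out, the median of the members ranged from -0.48 (without N_12 replicate 2) to -0.12 (without N_12 replicate 1). The N_12 libraries were both under the DMSO libraries for 5 members (CCN1, CCN2, AMOTL1, AMOTL2 and LATS2), where 26.8% of all tested genes did so. Both lay above for 1 member, AXL, where 27.9% of all tested genes did. Levels can be compared between genes only per length. In RPKM the order of the means in N_12 was WWTR1 (24.4), AXL (20.6), YAP1 (20.4), AMOTL1 (11.0), CCN1 (6.22), LATS2 (5.92), AMOTL2 (5.35), AJUBA (3.07), CCN2 (1.08) and ANKRD1 (0.0060). Neighbours in that order overlapped between libraries only for AXL and YAP1. In DMSO the order differed by an exchange of YAP1 (22.4 RPKM) with AXL (18.9 RPKM), and neighbours overlapped for WWTR1 and YAP1, for LATS2 and AMOTL2 and for AJUBA and CCN2.

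The wider pathway was examined through lists of other genes. Of 49 further Hippo pathway genes, from upstream kinases and junction proteins to the TEAD factors and their cofactors, 46 were tested, edgeR called 0 in either direction, and 9 had an unadjusted p under 0.05 (5 higher, 4 lower). Over all tested genes edgeR called 2.25%, and 21.8% had an unadjusted p under 0.05, so the count for the list was near the background. Limma-voom called 0 of the 46 and DESeq2 called 2, both lower, VGLL4 and LIMD1, beside 8.68% of all tested genes. The median log2 fold change of the 46 was 0.01, equal to that of all tested genes at this rounding. The lowest p belonged to VGLL4, a cofactor that competes with YAP for TEAD, at 36.2 and 41.8 CPM in N_12, against 69.0 and 62.7 CPM in DMSO. Its log2 fold change was -0.76 (SE 0.16, edgeR adjusted p = 0.0542), and 23.7% of its exon bases overlap genes on the other strand, ATG7 among them. Next came LIMD1, a LIM-domain inhibitor of LATS (-0.49, SE 0.14, edgeR adjusted p = 0.110), the kinase MAP4K4, which can activate LATS (0.39, SE 0.13, adjusted p = 0.140), and STRN3, a subunit of the phosphatase complex that restrains the MST kinases (0.45, SE 0.15, adjusted p = 0.143).

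The 4 TEAD genes were singled out after their values were seen, as the DNA-binding partners. TEAD1 had 198 and 175 CPM in N_12, against 144 and 156 CPM in DMSO, and TEAD3 had 54.9 and 57.2 CPM in N_12, against 45.9 and 43.6 CPM in DMSO. For all 4 both N_12 libraries lay above both DMSO libraries, as they did for 27.9% of all tested genes and for 15 of the 46 Hippo pathway genes, with log2 fold changes of 0.32 for TEAD1, 0.36 for TEAD2, 0.32 for TEAD3 and 0.26 for TEAD4. None was called by edgeR (adjusted p from 0.228 for TEAD1 to 0.373 for TEAD4). Of the 4 vestigial-like cofactor genes, VGLL1 and VGLL2 had 0 counts in every library and VGLL3 stood below 1 CPM.

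Within the core kinase cassette, STK4, which encodes the kinase MST1, had 32.4 and 38.6 CPM in N_12, against 123 and 38.0 CPM in DMSO, and it too was named after its values were seen. DMSO replicate 1 stood apart and DMSO replicate 2 lay between the N_12 libraries, so the log2 fold change of -1.18 had a 95% interval from -3.45 to 1.09 (edgeR adjusted p = 0.442). Without DMSO replicate 1 the log2 fold change was -0.10 (edgeR adjusted p = 0.918). Without DMSO replicate 2 it was -1.79 (edgeR adjusted p = 0.000431), but DMSO is then the library that stood apart, and the spread comes from the N_12 libraries alone. LATS1, the partner kinase of LATS2, had 41.4 and 33.1 CPM in N_12, against 35.7 and 36.2 CPM in DMSO, and the groups overlapped.

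A published signature of YAP and TAZ targets across cancers contains 22 genes, 6 of which are members (CCN1, CCN2, ANKRD1, AXL, AMOTL2 and LATS2). Of its 16 other genes 14 were tested, and these did not lie on the side of CCN1 and CCN2 as a group: 7 were below 0, 7 above, and the median log2 fold change was -0.02. EdgeR called 0 of the 14 in either direction and 2 had an unadjusted p under 0.05, both higher, where 21.8% of all tested genes had such a p and 11% were also higher; limma-voom called 0, and DESeq2 called these 2. EdgeR called 2.25% of all tested genes, limma-voom 0.929% and DESeq2 8.68%. The count of 2 genes at an unadjusted p under 0.05 was near the background. They were NT5E, which encodes the ectonucleotidase CD73, and DOCK5, an exchange factor for the GTPase RAC. NT5E had 418 and 347 CPM in N_12, against 199 and 264 CPM in DMSO, a log2 fold change of 0.72 (SE 0.17, edgeR adjusted p = 0.0768). With the higher DMSO library, replicate 2, left out NT5E was called higher (0.94, edgeR adjusted p = 0.0288), on the spread of the N_12 libraries alone. The adjusted p was 0.209 to 0.297 when any of the other libraries was left out. DOCK5 had 100 and 94.5 CPM in N_12, against 59.0 and 71.7 CPM in DMSO (0.57, SE 0.15, edgeR adjusted p = 0.0931). The next genes by p were IGFBP3, a binding protein of insulin-like growth factors at 0.493 CPM in N_12 and 0.947 CPM in DMSO on average (-0.94, edgeR adjusted p = 0.309), and the membrane repair gene MYOF (0.24, edgeR adjusted p = 0.434).

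**Figure D4:**
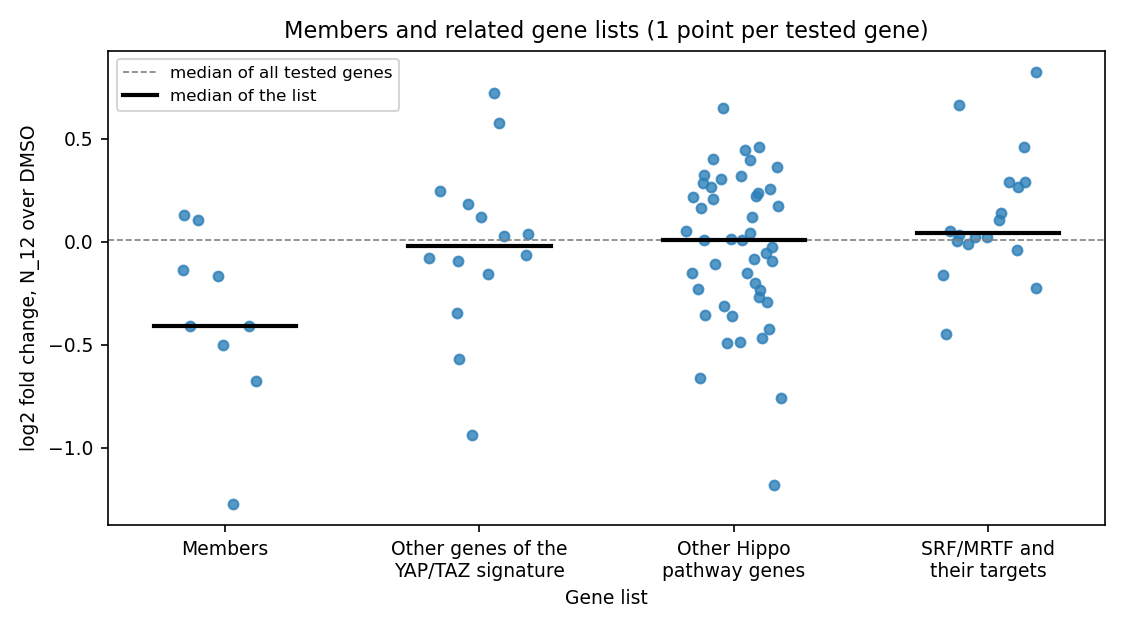
Log2 fold change, N_12 over DMSO, of every tested gene in 4 lists: the 9 tested members, 14 other genes of the YAP/TAZ signature, 46 other Hippo pathway genes, and 18 genes of SRF, its MRTF cofactors and their targets; black bars are list medians and the dashed line is the median of all tested genes. The median of the members is -0.41, which is the imprecise value of AJUBA, and those of the other lists are -0.02, 0.01 and 0.04.

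CCN1, CCN2 and ANKRD1 are also targets of the serum response factor SRF with its actin-regulated MRTF cofactors. Of 21 further genes of that group 18 were tested, edgeR called 0 in either direction, 4 had an unadjusted p under 0.05 (3 higher, 1 lower), and the median log2 fold change was 0.04. That count was near the 21.8% of all tested genes with such a p. Limma-voom called 0 and DESeq2 called 2, MRTFB higher and TAGLN2 lower. Over all tested genes edgeR called 2.25%, limma-voom 0.929% and DESeq2 8.68%. The 4 were TGFB1I1, a focal adhesion LIM protein (0.66, SE 0.18, edgeR adjusted p = 0.0999), the actin-binding transgelin gene TAGLN2 (-0.45, SE 0.13), the tropomyosin gene TPM4 (0.46, SE 0.15) and the cofactor gene MRTFB (0.82, SE 0.29). MRTFB had 65.5 and 62.6 CPM in N_12, against 46.9 and 25.5 CPM in DMSO, and the groups did not overlap. With the higher DMSO library, replicate 1, left out it was called higher (1.33, edgeR adjusted p = 0.0117), on the spread of the N_12 libraries alone. The adjusted p was 0.332 to 0.402 when any of the other libraries was left out.

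Among the 11235 other tested genes that averaged 5 CPM or more, the profile most like that of CCN2 over the 4 libraries was that of DDIT4, an inhibitor of mTORC1 signalling, with a root mean square distance of 0.059 between centred log2 CPM values. TRAPPC6A, a subunit of a vesicle tethering complex, and TSC22D3, a leucine zipper gene induced by glucocorticoids, came next, at 0.079 each. DDIT4 had 353 and 471 CPM in N_12, against 1073 and 854 CPM in DMSO (log2 fold change -1.23, edgeR adjusted p = 0.0237). TSC22D3 was also called lower (-1.18, edgeR adjusted p = 0.0297), and TRAPPC6A was not (-1.15, edgeR adjusted p = 0.0601). With 4 libraries in 2 groups this likeness is a description of shared level differences.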

How the data were processed

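Messenger RNA libraries of HCT116 cells were sequenced, and the authors deposited 1 table of gene counts as whole numbers, not normalized, 1 column per sample, per the file headers. Which aligner, counter and strand setting were used is not given in the sources used here. Mouse builds (GRCm38 and mm10) are named in the submitters' processing notes, whereas the identifiers in the table are human, so no coordinates are attached to the counts. Symbols were found for 20148 of 20263 identifiers. GENCODE release 29 supplied exon lengths, overlaps and GC content, and promoter sequences came from RefSeq.

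Groups and replicate numbers came from the sample titles. The counts were fitted with edgeR 4.0.16 (R 4.3.3): TMM scaling (factors 0.98 to 1.02), the expression filter with groups, robust quasi-likelihood tests without a replicate term, two-sided, adjusted over all 14105 tested genes. CPM used the TMM-scaled totals, standard errors were derived from the F statistic, and the procedure was tested on simulated data. Replicates were not copies of one library: the chi-square of their counts, divided by its degrees of freedom, was 59.6 for N_12 and 37.5 for DMSO. Alternatives were other scalings and filters, a replicate term, leaving out each library, limma-voom (limma 3.58.1), DESeq2 1.42.0, non-robust dispersions and a GC and length correction.

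The members and lists were chosen with earlier results of these data known. Named genes were all members, the 4 genes of lowest p in each list and every called one, the 3 profiles nearest to the member of lowest p, and the most abundant marker of each other cell type; TEAD and STK4 genes and genes naming a count were added after their values were seen. No list was given a p-value.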

Additional observations from a re-analysis of the deposited data

How the results depend on the processing

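Across 15 other settings, edgeR or another tool called CCN2 lower in 4, AMOTL2 in 2 and CCN1 in 1, and the remaining tested members in 0. The log2 fold changes of CCN2 (-1.51 to -0.999), CCN1, AMOTL1, AMOTL2 and LATS2 stayed below 0 and that of AXL (0.02 to 0.25) above 0 in all of them. Signs turned for YAP1 (0.12), WWTR1 (-0.10) and AJUBA (0.01) without N_12 replicate 1, and for AJUBA (0.21) without DMSO replicate 2. When a library was left out these values ranged from -0.48 to 0.12 for YAP1, from -0.10 to 0.27 for WWTR1 and from -1.05 to 0.21 for AJUBA; they were not called and the cause was not tested. Over all genes 317 were called. The count was 1225 with DESeq2, 938 with GC and length correction, 131 with limma-voom and 131 with non-robust dispersions, and 0 to 451 when a library was left out (0 without either N_12 library, with 2855 and 2763 genes at an unadjusted p under 0.05). With a library left out, the lone library of its group is assumed to vary like those of the other group. Scaling by library totals alone raised the share of higher calls from 36.6% to 46.2%. Among members, 1 was called with a stricter filter (CCN2), 1 with GC and length correction (AMOTL2) and 3 with DESeq2. Over all tested genes these settings called 3.29%, 6.66% and 8.68%, in that order. Hippo pathway calls were 1 with the stricter filter (VGLL4), 2 with DESeq2, 2 with GC and length correction (VGLL4 and RASSF1) and 0 to 1 when a library was left out. For the whole signature, members included, calls were 1 with the stricter filter (CCN2), 5 with DESeq2 and 3 with GC and length correction. The members CCN2, CCN1 and AMOTL2 were among the 5, and AMOTL2 was among the 3. SRF and MRTF calls were 2 with DESeq2.

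With a replicate block edgeR called 963 genes, 6.83% of those tested. They included 1 member (CCN2, edgeR adjusted p = 0.000741) and 1 Hippo pathway gene (VGLL4). The standard error of CCN2 was 0.29 with the block and 0.27 without it, so its lower p did not come from a smaller standard error. In the block fit that p rests on a spread pooled over genes, and it does not measure the spread of CCN2 itself. Also called were 2 signature genes (CCN2 and NT5E) and 1 SRF or MRTF gene (MRTFB). The deviations of same-numbered samples had a Pearson correlation of -0.09 across genes (Spearman -0.20), so the numbers were not taken to pair the samples. Crossing the numbers, an alternative chosen after seeing the data, gave 28 called genes. Beyond ANKRD1, at 0 or 1 count per library, CCN2, at 90 to 217 counts, has the fewest counts of the members.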

Other observations

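The gap between replicates of AJUBA went the same way in both groups, replicate 2 being 2.11 times replicate 1 in N_12 and 2.06 times in DMSO. Of 14018 tested genes with counts in every library, 35 (0.25%) had replicate 2 at least 2 times replicate 1 in both groups, and 36 (0.257%) had the reverse. AJUBA was the only member among them. The labels give no meaning to the replicate numbers, and this was looked for after the values of AJUBA were seen.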
